A study of Mus musculus with 36 samples.

Results

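Mouse hearts labelled KO for Rev-erb were compared between the middle of the light phase and the middle of the dark phase, with 3 KO libraries at zeitgeber time (ZT, hours after lights on) 6 and 3 KO libraries at ZT18, chosen by their sample titles. These 6 libraries are part of a series of 36 mouse heart libraries that covers 2 genotypes at 6 times of day. The KO mice carried a floxed Rev-erb allele with an MHC transgene (Reverb fl/fl /MHC+), and the WT mice carried the floxed allele without it (Reverb fl/fl). All were C57BL/6 mice aged 8 weeks that ate normal chow, with lights on for 12 h and off for 12 h each day. The 3 WT libraries at ZT6 and the 3 at ZT18 served to test whether a time-of-day difference differed between genotypes. MHC is used in this field for the myosin heavy chain promoter, which drives Cre recombinase in heart muscle cells and leaves other cells of the heart with an intact allele, though the labels name no recombinase. No group carried the transgene alone, so its own effect and that of Rev-erb loss cannot be told apart between genotypes, while both times of the KO comparison share it. Whether replicate libraries stem from different mice is not stated in the labels, so every p-value reflects library-to-library spread, which may be technical.

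Rev-erb alpha and beta, encoded by Nr1d1 and Nr1d2, are nuclear receptors that repress transcription at ROR response elements (RORE). The clock factors BMAL1 and CLOCK switch on genes with an E-box, among them the Per, Cry and Rev-erb genes, and Rev-erb in turn represses the BMAL1 gene Arntl, which closes a second loop of the clock. The D-box genes Dbp, Tef and Hlf and their antagonist Nfil3 carry time into output genes. In a nocturnal mouse, ZT6 falls in the resting and mostly fasting phase and ZT18 in the active feeding phase, and the heart shifts between fatty acid and glucose use across them.

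Depth, recovered from the steps of low values, was 15.2 to 15.6 M reads (M, 1e6) in the KO ZT6 libraries and 16.7 to 17.4 M in the KO ZT18 libraries, and 11307 to 11330 genes reached 1 FPKM at ZT6 and 11065 to 11097 at ZT18. Neither range overlapped between the times, and the part of this in the results was not tested. Pearson correlations of log2 values across genes were 0.9957 to 0.9972 within KO ZT6, 0.9955 to 0.9968 within KO ZT18 and 0.9902 to 0.9918 between them. Of 11790 genes tested with limma on log2(FPKM + 1), 2771 differed between ZT6 and ZT18 in KO hearts at an adjusted p under 0.05, a share of 23.5%. These were 2001 genes higher at ZT6 (17%) and 770 lower (6.53%), with a median log2 difference over all genes of 0.05. The split of these calls depends on scaling: with median-ratio scaling 1149 were higher and 1623 lower, and with quantile normalization 1115 were higher and 1143 lower. The shares called in WT hearts were 18.2% higher and 10.2% lower at ZT6, and the difference between genotypes was called for 3.27% of genes, 2.08% positive and 1.19% negative. Most called differences were small, and 30 genes differed by a log2 of at least 1, 19 of them higher and 11 lower at ZT6.

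Both Rev-erb transcripts were higher at ZT6 than at ZT18 in KO hearts, and both differed less between the times than in WT hearts. Nr1d1 stood at 317, 272 and 296 FPKM in the KO ZT6 libraries, against 192, 199 and 193 FPKM in the KO ZT18 libraries. The WT hearts had 69.4, 54.1 and 87.7 FPKM at ZT6, against 14.2, 12.2 and 10.7 FPKM at ZT18. All KO libraries lay above all WT libraries, and the times did not overlap in either genotype, as was so for 44.6% of tested genes in KO hearts and 40.8% in WT hearts. The log2 difference between the times was 0.59 ± 0.16, adjusted p = 0.00847 in KO hearts and 2.39 ± 0.16, adjusted p = 3.10e-11 in WT hearts (± SE, limma), and the genotypes differed by -1.80 ± 0.23, adjusted p = 8.82e-05. Values are per gene and not per exon and the labels do not say which exons are floxed, so they do not check the deletion, and KO and WT are used here as the labels give them. Nr1d2 had 34.05, 33.4 and 34.9 FPKM at ZT6 and 22.4, 22.7 and 22.7 FPKM at ZT18 in KO hearts, with 36.9, 39.9 and 32.9 FPKM at ZT6 and 12.3, 15.8 and 12.8 FPKM at ZT18 in WT hearts. Its ZT6 libraries overlapped between the genotypes, whereas its ZT18 level was higher in each KO library than in any WT library. Its log2 difference was 0.57 ± 0.08, adjusted p = 1.53e-05 in KO hearts, and it differed from that of WT hearts by -0.79 ± 0.12, adjusted p = 0.000471. Thra, the thyroid hormone receptor gene that overlaps Nr1d1 on the opposite strand, was not called (19.7, 18.9 and 19.8 FPKM at ZT6, 17.8, 17.5 and 18.5 FPKM at ZT18 in KO hearts). No strand-specific protocol is named, so reads from the overlap of the pair cannot be told apart.

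In KO hearts 17% of all tested genes were higher at ZT6 and 6.53% lower, and in WT hearts 18.2% and 10.2%. Of the 6 clock genes known as RORE targets, 1 was higher and 1 lower, where 2 were higher and 3 lower in WT hearts. Promoter sequence from RefSeq (GRCm38.p6, 250 bases before to 50 after the transcript start, 5′ to 3′ on the gene's strand) is shown for 3 of them: Arntl and Nfil3, not called different between the times in KO hearts, and Cry1, which was called. Capitals mark the RORE core TNGGTCA in Arntl and Nfil3 and the E-box CACGTG in Cry1, each searched on both strands.
Arntl (chr7:113207261-113207560, plus strand): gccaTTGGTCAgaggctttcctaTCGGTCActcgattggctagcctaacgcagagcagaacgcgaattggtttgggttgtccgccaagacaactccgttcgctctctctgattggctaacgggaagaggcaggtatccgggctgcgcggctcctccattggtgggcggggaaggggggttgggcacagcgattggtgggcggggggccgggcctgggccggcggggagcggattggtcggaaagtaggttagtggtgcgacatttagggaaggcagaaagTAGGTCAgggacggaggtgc
Nfil3 (chr13:52980990-52981289, minus strand): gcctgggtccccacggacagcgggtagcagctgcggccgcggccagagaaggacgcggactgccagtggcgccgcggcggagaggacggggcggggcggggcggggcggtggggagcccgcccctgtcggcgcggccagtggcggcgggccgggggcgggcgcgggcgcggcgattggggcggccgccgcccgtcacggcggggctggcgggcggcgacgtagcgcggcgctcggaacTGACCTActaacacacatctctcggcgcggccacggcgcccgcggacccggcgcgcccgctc
Cry1 (chr10:85185005-85185304, minus strand): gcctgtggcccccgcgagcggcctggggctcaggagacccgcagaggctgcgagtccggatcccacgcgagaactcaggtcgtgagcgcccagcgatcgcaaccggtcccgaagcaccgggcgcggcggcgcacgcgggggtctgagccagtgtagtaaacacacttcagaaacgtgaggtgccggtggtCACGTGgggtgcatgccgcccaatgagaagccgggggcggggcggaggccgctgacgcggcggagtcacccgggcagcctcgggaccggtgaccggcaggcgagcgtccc
The RORE core began at bases -246, -227 and 31 of Arntl, counted from the transcript start, and at base -12 of Nfil3 on the opposite strand. It was in 2 of the 5 windows of this list, those of Arntl and Nfil3, against 1101 of 9412 windows of tested genes (11.7%). Among the E-box and D-box driven clock genes it was in 3 of 8 windows (37.5%), so it did not set this list apart. The Cry1 E-box began at base -60, and an E-box was in 1122 of the 9412 windows (11.92%). A match is a run of letters and not a measured binding site.

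Arntl, which encodes the clock activator BMAL1, had 27.9, 30.5 and 28.7 FPKM at ZT6 and 27.6, 29.4 and 27.6 FPKM at ZT18 in KO hearts. The times overlapped, and the KO mean stayed between 25.9 and 29.0 FPKM at all 5 times of day measured. In WT hearts the means ran from 0.973 FPKM at ZT14 to 12.8 FPKM at ZT2, but ZT6 and ZT18 fall on both flanks of that trough, with 5.33, 3.72 and 7.58 FPKM at ZT6 and 6.11, 4.03 and 4.05 FPKM at ZT18, and were not called different either. Nfil3, a repressor of D-box genes, differed between the genotypes at this pair of times. It had 46.2, 40.6 and 44.7 FPKM at ZT6 and 41.1, 46.9 and 46.1 FPKM at ZT18 in KO hearts, with overlapping libraries. In WT hearts it had 4.93, 5.38 and 5.5 FPKM at ZT6 and 21.1, 16.9 and 19.1 FPKM at ZT18, with every ZT6 library lower. The log2 differences were -0.03 ± 0.10, adjusted p = 0.87 in KO hearts and -1.67 ± 0.10, adjusted p = 1.44e-12 in WT hearts, and the difference between genotypes was 1.65 ± 0.13, adjusted p = 1.82e-08.

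Cry1, a clock repressor with both E-box and RORE control, was lower at ZT6 in KO hearts, with 8.48, 9.98 and 9.7 FPKM at ZT6 and 16.8, 16.1 and 17.3 FPKM at ZT18. The libraries did not overlap, and the log2 difference was -0.77 ± 0.07, adjusted p = 9.69e-09, against -0.88 ± 0.07, adjusted p = 2.30e-10 in WT hearts. The genotypes differed by 0.11 ± 0.09, adjusted p = 0.605, so no genotype difference was detected for Cry1. Npas2, a partner of BMAL1 that can stand in for CLOCK, was higher at ZT6, with 7.93, 9.25 and 8.28 FPKM at ZT6 and 5.21, 5.3 and 5.64 FPKM at ZT18 in KO hearts (log2 difference 0.57 ± 0.12, adjusted p = 0.00118). Clock had 10.3, 10.5 and 10.5 FPKM at ZT6 and 10.8, 9.46 and 10.3 FPKM at ZT18 and was not called in KO hearts.

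Among the 10 E-box and D-box driven clock genes, 4 were higher and none lower at ZT6 in KO hearts, and 4 were higher and 2 lower in WT hearts. Dbp, an activator of D-box output genes, had 137, 122 and 126 FPKM at ZT6 and 93.1, 98.5 and 100.1 FPKM at ZT18 in KO hearts. The WT hearts had 57.7, 60.2 and 54.7 FPKM at ZT6 and 16.02, 23.1 and 20.7 FPKM at ZT18, below every KO library at either time. Its log2 difference was 0.40 ± 0.12, adjusted p = 0.0167 in KO hearts, a call that was lost with median-ratio scaling and without KO ZT6 replicate 1 or KO ZT18 replicate 1, and the genotypes differed by -1.10 ± 0.17, adjusted p = 0.000622. Bhlhe41 and Bhlhe40, repressors that compete at E-boxes, were both higher at ZT6. Bhlhe41 had 14.6, 12.2 and 13.1 FPKM at ZT6 and 9.65, 9.62 and 9.15 FPKM at ZT18 (log2 difference 0.44 ± 0.08, adjusted p = 0.000455). Bhlhe40 had 34.5, 28.2 and 31.3 FPKM at ZT6 and 25.8, 23.1 and 22.7 FPKM at ZT18 (log2 difference 0.38 ± 0.10, adjusted p = 0.00511). Per3 was called higher (4.88, 5.26 and 5.89 FPKM at ZT6, 4.52, 4.33 and 3.87 FPKM at ZT18, adjusted p = 0.034), and the call held under 5 of 14 alternatives. The period genes Per1 and Per2, the repressor Cry2, the E-box repressor Ciart and the D-box factors Tef and Hlf were not called in KO hearts. Their log2 differences were -0.04 for Per1, -0.45 for Per2, -0.01 for Cry2, 0.12 for Ciart, -0.04 for Tef and -0.02 for Hlf. Per2 had 2.96, 2.58 and 2.79 FPKM at ZT6 and 4.54, 3.92 and 4 FPKM at ZT18 without overlap (adjusted p = 0.0636), and it was called lower with median-ratio scaling, quantile normalization, edgeR and a fit of the KO libraries of this comparison alone. Of 6 genes that cycle in many tissues, 2 were lower at ZT6 in KO hearts. These were Wee1, a cell cycle kinase under clock control, with 2.77, 2.67 and 3 FPKM at ZT6 and 4.56, 4.78 and 4.6 FPKM at ZT18, and Lonrf3 with 0.84, 1.37 and 1.1 FPKM at ZT6 and 2.06, 2.06 and 1.67 FPKM at ZT18.

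**Figure D1:**
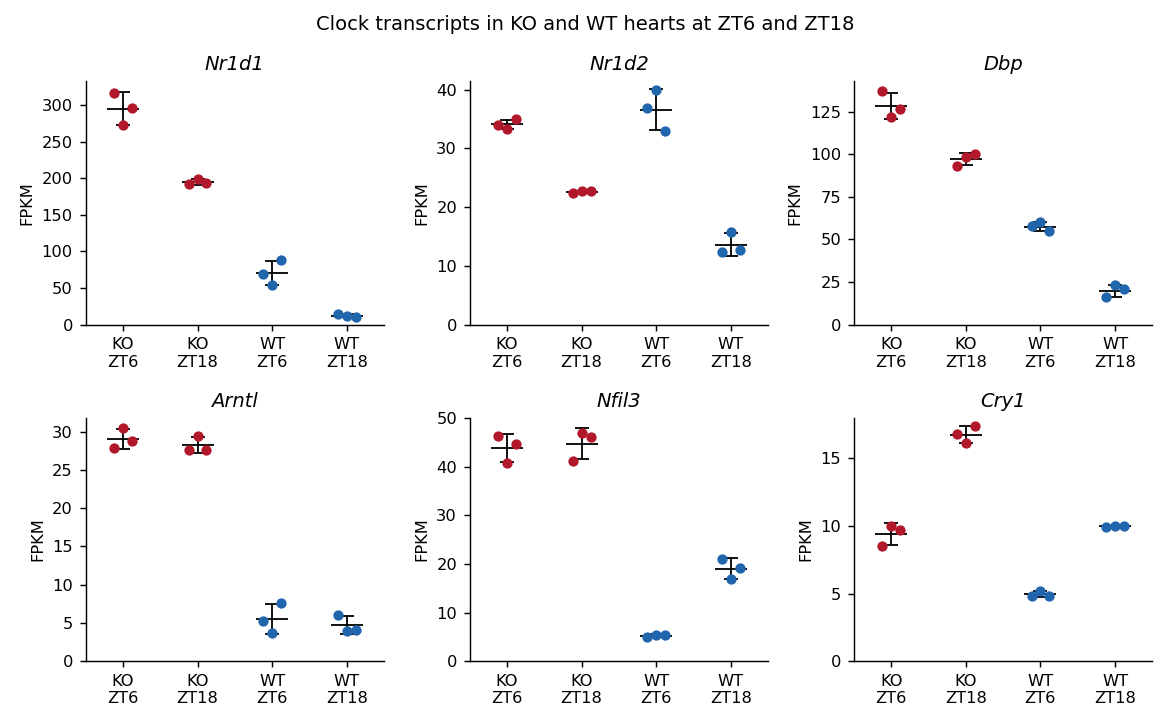
FPKM of 6 clock transcripts in the 3 libraries of each group (points, KO red, WT blue), with the group mean and its SD (black bar and whiskers). Nr1d1, Nr1d2 and Dbp are higher at ZT6 than ZT18 in both genotypes, Arntl and Nfil3 overlap between the times in KO hearts, and Cry1 is lower at ZT6 in both.

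Several of the largest differences in KO hearts were in genes of the switch from glucose to fat. Angptl4, a secreted inhibitor of lipoprotein lipase, had 54.7, 71.2 and 59.4 FPKM at ZT6, against 6.02, 6.41 and 5.46 FPKM at ZT18, a ratio of means of 10.4. The log2 difference was 3.17 ± 0.30, adjusted p = 4.65e-08 in KO hearts and 3.10 ± 0.30, adjusted p = 2.15e-08 in WT hearts. Pdk4, the kinase that shuts pyruvate dehydrogenase, had 424, 479 and 454 FPKM at ZT6 and 108, 83.4 and 89.8 FPKM at ZT18 in KO hearts (log2 difference 2.26 ± 0.23, adjusted p = 1.07e-07). Ucp3, a mitochondrial carrier that rises in fasting muscle, had 37.7, 42.6 and 39.7 FPKM at ZT6 and 7.17, 8.35 and 8.77 FPKM at ZT18 (log2 difference 2.17 ± 0.19, adjusted p = 1.10e-08). None of these 3 differed between genotypes past the threshold: the differences were 0.07 for Angptl4, -0.72 for Pdk4 and -0.57 for Ucp3, with adjusted p of 0.961, 0.245 and 0.278.

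Over the 5 KO times, the means of these transcripts ran between the levels of ZT6 and ZT18. Angptl4 averaged 6.24, 61.8, 25.9, 39.9 and 5.96 FPKM at ZT2, ZT6, ZT10, ZT14 and ZT18 in KO hearts. Pdk4 averaged 165, 452, 419.5, 212 and 93.8 FPKM at the same times, and Ucp3 12.4, 40, 35.99, 17.4 and 8.097 FPKM. In all 3, ZT6 had the highest mean of the 5 times and ZT18 the lowest, so the pair of times compared spans the range of means measured. Txnip, which curbs glucose uptake, was also higher at ZT6, with 314, 325 and 316 FPKM at ZT6 and 156, 145 and 148 FPKM at ZT18 in KO hearts and 446, 443 and 449 FPKM at ZT6 and 107, 142 and 126 FPKM at ZT18 in WT hearts. Its ZT6 values lay below those of WT hearts in every library, and its log2 difference was 1.08 ± 0.15, adjusted p = 1.00e-05 in KO hearts, which differed from WT hearts by -0.75 ± 0.21, adjusted p = 0.0473.

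**Figure D2:**
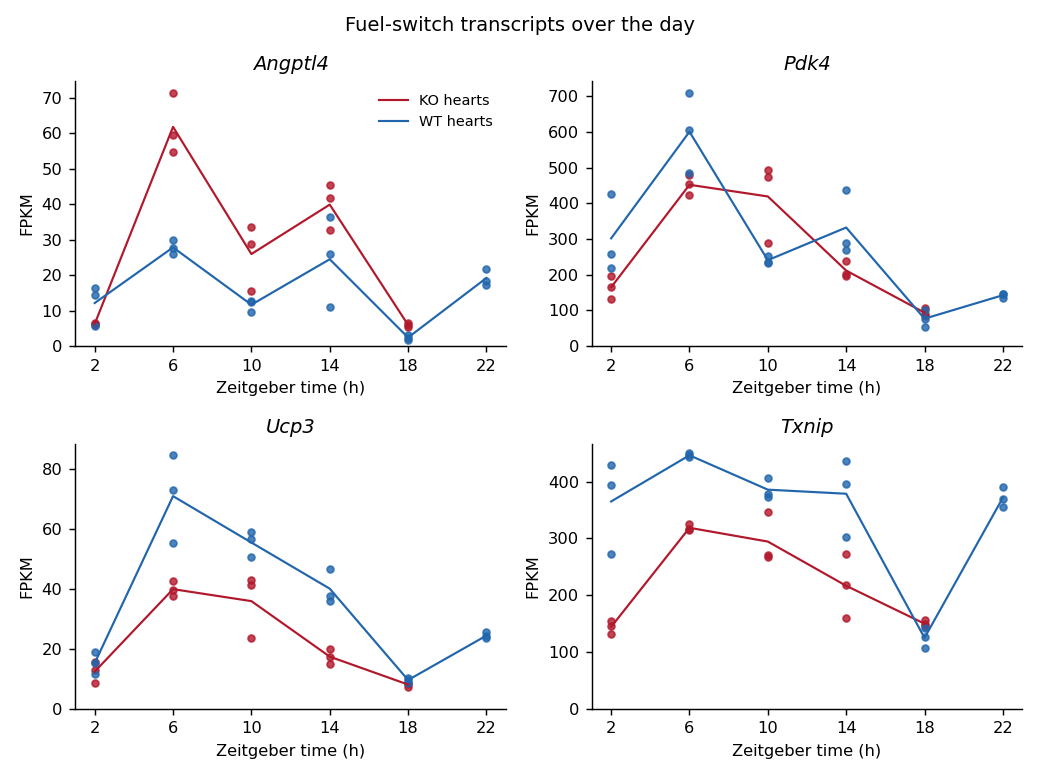
FPKM of Angptl4, Pdk4, Ucp3 and Txnip against zeitgeber time in hours, in KO (red) and WT (blue) hearts. Points are single libraries and lines join group means; KO ZT22 was not analysed. In KO hearts all 4 transcripts are higher at ZT6 than at ZT18.

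Of 15 fasting-responsive and PPAR target genes measured, 6 were higher and 2 lower at ZT6 in KO hearts, and 8 were higher and none lower in WT hearts. Over all tested genes, 17% were higher and 6.53% lower in KO hearts, and 18.2% and 10.2% in WT hearts. The genotype difference was called positive for 2.08% and negative for 1.19%. These are the shares to set beside the list counts below as well. With median-ratio scaling 1149 of all 11790 tested genes were higher and 1623 lower in KO hearts, the counts to set beside list counts from that scaling. The list did not move as a whole: its median log2 difference was -0.01 in KO hearts, beside 0.05 over all genes, and 5 genes were lower with median-ratio scaling. Cpt1a, which carries long fatty acids into mitochondria, was higher (13.7, 14.1 and 13.4 FPKM at ZT6, 9.6, 9.61 and 9.22 FPKM at ZT18, log2 difference 0.49 ± 0.07, adjusted p = 1.90e-05), as was the lipid droplet coat gene Plin2 (0.22). The lower genes were Fabp3, the heart fatty acid binding protein, with 5888, 6013 and 5796 FPKM at ZT6 and 6870.2, 6721 and 6817 FPKM at ZT18 (log2 difference -0.21 ± 0.05, adjusted p = 0.00568), and Acot2, a mitochondrial thioesterase. Acot2 had 51.2, 57.6 and 53.2 FPKM at ZT6 and 64.4, 61.4 and 61.2 FPKM at ZT18 in KO hearts, but 64.9, 70.1 and 58.5 FPKM at ZT6 and 57.02, 57.2 and 55.05 FPKM at ZT18 in WT hearts. Its sign was thus opposite in the genotypes, with a difference of -0.39 ± 0.10, adjusted p = 0.0261, though its KO call held under 8 of 14 alternatives. Cd36, the fatty acid uptake protein, and Acot1 were not called in KO hearts and higher at ZT6 in WT hearts. Cd36 had 605, 625 and 625 FPKM at ZT6 and 592, 603 and 602 FPKM at ZT18 in KO hearts, and 846, 851 and 813 FPKM at ZT6 and 689, 676 and 662 FPKM at ZT18 in WT hearts. The genotype differences of Txnip, Acot1, Acot2 and Cd36 were the 4 called in the list, all negative, and each was lost when some single library was left out.

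In triglyceride turnover, 4 of 17 genes were higher and 1 lower at ZT6, beside 17% and 6.53% of all tested genes. With median-ratio scaling 2 of the 17 were higher and 4 lower. Lipe, the hormone-sensitive lipase, had 21.9, 22.8 and 21.3 FPKM at ZT6 and 15.99, 15.5 and 15.7 FPKM at ZT18 in KO hearts (log2 difference 0.46 ± 0.09, adjusted p = 0.00034). Mgll, the monoglyceride lipase, had 69.7, 72.1 and 71.01 FPKM at ZT6 and 52.7, 50.3 and 53 FPKM at ZT18 (log2 difference 0.44 ± 0.08, adjusted p = 0.000253). Pnpla2, the lipase that starts triglyceride breakdown, went the other way, with 347, 373 and 348 FPKM at ZT6 and 451, 443 and 455 FPKM at ZT18 (log2 difference -0.34 ± 0.05, adjusted p = 5.63e-05). The ZT6 and ZT18 libraries of these 3 genes did not overlap in KO hearts, as was so for 44.6% of tested genes. In pyruvate entry, 5 of 14 genes were higher and none lower, with Pdk4 far ahead of Mpc1, a subunit of the mitochondrial pyruvate carrier (0.19), Pdp2, a pyruvate dehydrogenase phosphatase (0.36), Pdk1 (0.18) and Dld (0.13). Pdp2 had 5.71, 5 and 5.32 FPKM at ZT6 and 3.42, 4.16 and 4.3 FPKM at ZT18 in KO hearts, and 11.8, 13.4 and 10.7 FPKM at ZT6 and 4.7, 5.49 and 4.02 FPKM at ZT18 in WT hearts. Its difference was smaller in KO hearts (KO minus WT -0.82 ± 0.14, adjusted p = 0.00179). The KO call of Pdp2 was lost without KO ZT6 replicate 1 or KO ZT18 replicate 1, and those of Mpc1, Pdk1 and Dld were lost with median-ratio scaling and edgeR.

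Glucose-handling genes were mostly lower at ZT6 where they were called. Of 22 genes of glucose uptake and glycolysis, 6 were lower and 2 higher at ZT6 in KO hearts. With median-ratio scaling 10 were lower and none higher, but genes called lower over all 11790 tested also rose, from 770 to 1623. Pgam1, the phosphoglycerate mutase of glycolysis, had 82.6, 80.2 and 79.97 FPKM at ZT6 and 122, 126 and 125 FPKM at ZT18 (log2 difference -0.61 ± 0.08, adjusted p = 4.98e-06). The other called glycolytic enzymes moved by less, from -0.18 for Hk1 to -0.14 for Gapdh. Slc16a1, the lactate transporter MCT1, had 84.1, 90.7 and 89.2 FPKM at ZT6 and 104, 108 and 106 FPKM at ZT18 (log2 difference -0.26 ± 0.05, adjusted p = 0.000169). Slc2a1, the glucose transporter GLUT1, was not called in KO hearts, with 8.38, 8.56 and 7.83 FPKM at ZT6 and 8.83, 8.51 and 8.45 FPKM at ZT18, but in WT hearts it had 9.04, 7.96 and 7.88 FPKM at ZT6 and 2.95, 4.26 and 4.7 FPKM at ZT18. That genotype difference was -0.97 ± 0.22, adjusted p = 0.0115.

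Of 19 glycogen genes, 5 were lower and 1 higher at ZT6 in KO hearts, and 8 were lower with median-ratio scaling. That scaling called 1623 of all 11790 tested genes lower, against 770 as deposited. By adjusted p, Ppp1r3c and Ppp1r3b, subunits that bring protein phosphatase 1 to glycogen, led the lower ones, while Pygl had the largest log2 difference. Ppp1r3b had 9.42, 8.53 and 10.1 FPKM at ZT6 and 18.4, 15.96 and 18.3 FPKM at ZT18 in KO hearts, and 6.93, 7.02 and 7.05 FPKM at ZT6 and 26.2, 26 and 29.4 FPKM at ZT18 in WT hearts. Neither genotype's times overlapped, and the fall at ZT6 was smaller in KO hearts, with log2 differences of -0.84 ± 0.14, adjusted p = 0.000118 in KO and -1.81 ± 0.14, adjusted p = 5.41e-10 in WT hearts (difference between genotypes 0.97 ± 0.20, adjusted p = 0.00684). Ppp1r3c had 63.5, 68.1 and 65.7 FPKM at ZT6 and 109.6, 91.1 and 102 FPKM at ZT18 in KO hearts (log2 difference -0.61 ± 0.09, adjusted p = 1.32e-05). Its genotype difference of 0.43 ± 0.12, adjusted p = 0.0457 was lost without some single libraries. Stbd1, which tethers glycogen to membranes, and Ppp1r3a were lower with log2 differences of -0.60 and -0.32 in KO hearts, and the call of Ppp1r3a was lost without KO ZT18 replicate 1. Pygl, the liver form of glycogen phosphorylase, had 3.48, 40.7 and 19.2 FPKM at ZT6 and 50.8, 116 and 80.5 FPKM at ZT18 in KO hearts, and at most 5.99 FPKM in the 6 WT libraries of both times. Replicates spread widely within both KO groups, and its call (-2.34 ± 0.66, adjusted p = 0.0112) was lost without KO ZT6 replicate 1 or KO ZT18 replicate 2. The muscle form Pygm, at 625, 617 and 618 FPKM at ZT6 and 621, 648 and 634 FPKM at ZT18, was not called.

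Among genes of insulin and FOXO signalling and muscle atrophy, 5 of 19 were higher and none lower at ZT6 in KO hearts. The KO shares over all tested genes were 17% and 6.53%. In WT hearts 11 of the 19 were higher and 2 lower. Irs1, the insulin receptor substrate, had 10.4, 10.8 and 10.9 FPKM at ZT6 and 6.58, 7.21 and 6.36 FPKM at ZT18 in KO hearts (log2 difference 0.60 ± 0.09, adjusted p = 2.62e-05). Fbxo32, the ubiquitin ligase atrogin-1, had 34.4, 30.9 and 33.6 FPKM at ZT6 and 20.4, 19.97 and 18.6 FPKM at ZT18 (log2 difference 0.72 ± 0.12, adjusted p = 0.000138). In both genes every ZT6 library was the higher. Trim63, the partner ligase MuRF1, was not called in KO hearts, with 97.7, 92.8 and 96.1 FPKM at ZT6 and 87.5, 93.4 and 89.7 FPKM at ZT18, while WT hearts had 141, 147 and 138 FPKM at ZT6 and 82.5, 89.9 and 70.3 FPKM at ZT18. The genotypes differed by -0.73 ± 0.11, adjusted p = 0.000622. Gabarapl1, an autophagosome protein, was higher at ZT6 by 0.19 in KO hearts and by 0.62 in WT hearts (difference between genotypes -0.44 ± 0.07, adjusted p = 0.00134). Its KO call was lost with median-ratio scaling, with edgeR and without KO ZT6 replicate 2 or KO ZT18 replicate 2. Klf15, a factor that couples glucocorticoid to lipid and amino acid use, had 17.98, 17.1 and 15.9 FPKM at ZT6 and 18.2, 22.2 and 18.8 FPKM at ZT18 in KO hearts, and 29.1, 28.7 and 33.3 FPKM at ZT6 and 15.4, 17.6 and 11.6 FPKM at ZT18 in WT hearts. It was not called in KO hearts, and the genotypes differed by -1.20 ± 0.19, adjusted p = 0.000666. Irs2 was higher at ZT6 in KO hearts and lower in WT hearts, with a difference of 0.77 ± 0.17, adjusted p = 0.0124. Its KO call was lost with quantile normalization and without KO ZT18 replicate 1.

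Regulators of mitochondrial metabolism moved in both directions, with 2 of 12 higher and 3 lower at ZT6 in KO hearts. Ppara, the fatty acid receptor that drives Angptl4, Pdk4 and Ucp3, was lower at ZT6, with 8.69, 8.67 and 9.2 FPKM at ZT6 and 13.03, 12.8 and 12.4 FPKM at ZT18 in KO hearts. WT hearts had 14.8, 15.5 and 14.3 FPKM at ZT6 and 14.9, 15.6 and 14.5 FPKM at ZT18. The log2 difference was -0.48 ± 0.08, adjusted p = 5.36e-05 in KO hearts, and the genotypes differed by -0.47 ± 0.11, adjusted p = 0.015. Perm1, a muscle regulator of mitochondrial genes, was lower in KO hearts (log2 difference -0.42). Gabpa and Esrrg, factors that activate respiratory genes, were higher at ZT6 in both genotypes. Gabpa had 15.4, 15.6 and 15.8 FPKM at ZT6 and 10.99, 10.6 and 10.5 FPKM at ZT18 in KO hearts (log2 difference 0.50 ± 0.06, adjusted p = 3.57e-06). Ppargc1a, the coactivator PGC-1 alpha, was not called in KO hearts, with 15.3, 15.6 and 15.7 FPKM at ZT6 and 15.3, 15.6 and 14.6 FPKM at ZT18, and WT hearts had 32.3, 39.7 and 23.8 FPKM at ZT6 and 21.5, 19.7 and 19.04 FPKM at ZT18. Its genotype difference of -0.59 ± 0.15, adjusted p = 0.0285, like that of Perm1 (-0.26 ± 0.07, adjusted p = 0.0458), was lost without some single libraries.

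Cytosolic and endoplasmic reticulum chaperones went in opposite directions. Of 20 heat shock and cytosolic chaperone genes, 7 were lower and none higher at ZT6 in KO hearts, beside 1 lower in WT hearts, with a median log2 difference of -0.22. Dnajb1, an HSP40 co-chaperone, had 4.84, 5.22 and 5.62 FPKM at ZT6 and 9.73, 8.11 and 9.07 FPKM at ZT18 in KO hearts (log2 difference -0.68 ± 0.14, adjusted p = 0.00129). Cryab, the small heat shock protein alpha B-crystallin, had 2872, 3228 and 2936 FPKM at ZT6 and 3758, 3640.0 and 3664 FPKM at ZT18 (log2 difference -0.29 ± 0.07, adjusted p = 0.00277). No genotype difference passed the threshold in this list, so a difference from WT hearts is not shown. Of 16 endoplasmic reticulum chaperone genes, 8 were higher and none lower at ZT6 in KO hearts, and 15 were higher in WT hearts. Pdia3, a disulfide isomerase, had 89.01, 93.1 and 90.2 FPKM at ZT6 and 64.5, 73.2 and 67.1 FPKM at ZT18 in KO hearts (log2 difference 0.41 ± 0.07, adjusted p = 0.000251), and Hspa5, the chaperone BiP, was higher by 0.23. The count of 8 became 5 with median-ratio scaling, with quantile normalization and with edgeR, and 5 without KO ZT18 replicate 1, KO ZT18 replicate 2 or KO ZT6 replicate 3. Cirbp, a cold-inducible RNA-binding protein, was higher at ZT6 with 25.1, 29.4 and 27.9 FPKM at ZT6 and 20.1, 18.01 and 17.7 FPKM at ZT18 (log2 difference 0.54 ± 0.07, adjusted p = 8.42e-06).

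In the integrated stress response, 3 of 14 genes were lower and 1 higher at ZT6 in KO hearts. Atf4, its central transcription factor, had 36.2, 42.2 and 38.9 FPKM at ZT6 and 73.2, 74.1 and 72.3 FPKM at ZT18 in KO hearts (log2 difference -0.89 ± 0.10, adjusted p = 2.66e-07). Ddit3, the stress factor CHOP, and Slc38a2, an amino acid transporter, were lower with log2 differences of -0.50 and -0.34. Chac1, which breaks down glutathione, was not called in KO hearts (3.6, 3.12 and 3.79 FPKM at ZT6, 1.78, 3.66 and 2.48 FPKM at ZT18), and WT hearts had 3.86, 4.06 and 3.84 FPKM at ZT6 and 0.56, 1.08 and 0.64 FPKM at ZT18. The genotypes differed by -1.16 ± 0.27, adjusted p = 0.0157, a call lost without KO ZT18 replicate 2.

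Of 16 immediate early genes, 6 were higher and 3 lower at ZT6 in KO hearts. Egr1, a growth-response factor, had 8.31, 8.08 and 7.7 FPKM at ZT6 and 2.67, 3.1 and 2.97 FPKM at ZT18 in KO hearts, and 8.13, 8.51 and 9.06 FPKM at ZT6 and 8.2, 8.96 and 7.38 FPKM at ZT18 in WT hearts. The KO ZT18 libraries stood below all 9 others, and the log2 difference was 1.21 ± 0.12, adjusted p = 1.21e-07 in KO hearts, with a genotype difference of 1.15 ± 0.17, adjusted p = 0.000576. Ccn1, a matricellular protein, had 41.99, 44.4 and 41.7 FPKM at ZT6 and 22.8, 26.5 and 25.1 FPKM at ZT18 in KO hearts (log2 difference 0.76 ± 0.10, adjusted p = 2.46e-06). Lower at ZT6 were Jun (log2 difference -0.44), Atf3 (-0.74) and Ier3 (-0.52). Zfp36, which destabilises inflammatory mRNAs, was not called in KO hearts and was higher at ZT6 in WT hearts (difference between genotypes -0.83 ± 0.19, adjusted p = 0.014).

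Ion channel genes of the action potential were lower at ZT6 in 6 of 24 cases and higher in 2. Kcnh2, the hERG potassium channel, had 21.7, 20.2 and 20.7 FPKM at ZT6 and 26.6, 26.3 and 26.6 FPKM at ZT18 in KO hearts (log2 difference -0.33 ± 0.06, adjusted p = 0.000278). Kcnj11, the pore of the ATP-sensitive potassium channel, was lower (log2 difference -0.25), and Kcnj2, an inward rectifier, was higher (0.43). The pacemaker channel gene Hcn4 was low and not called in KO hearts (0.79, 0.42 and 0.54 FPKM at ZT6, 0.52, 0.58 and 0.45 FPKM at ZT18), against 1.57, 1.35 and 1.68 FPKM at ZT6 and 2.33, 3.2 and 3.17 FPKM at ZT18 in WT hearts. It was the 1 channel whose genotype difference was called (0.67 ± 0.15, adjusted p = 0.0132). In the sarcomere list the same held for Lmod2, which lengthens thin filaments, with 326, 321 and 333 FPKM at ZT6 and 315, 334 and 310.4 FPKM at ZT18 in KO hearts, and 458, 446 and 493 FPKM at ZT6 and 299, 297 and 238 FPKM at ZT18 in WT hearts (difference between genotypes -0.72 ± 0.10, adjusted p = 0.000185).

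Interferon-stimulated genes were higher at ZT6 in KO hearts: 12 of 15 measured were called higher and none lower, with a median log2 difference of 0.40. In WT hearts 0 were higher and 2 lower. Over all tested genes 17% were higher and 6.53% lower in KO hearts, and 18.2% and 10.2% in WT hearts. Promoter windows are shown for Ifit1, Ifit3 and Isg15, with the core of the interferon-stimulated response element in capitals. They are among the 6 genes of this list with a called genotype difference and were picked as holding the core. Of the others, Oas2 and Usp18 had no window in the reference used. Xaf1 was not among the 7 genes of the list in which the core was found. This core was searched on both strands as GAAA, any pair of bases and GAAA again, and overlapping matches were joined.
Ifit1 (chr19:34640639-34640938, plus strand): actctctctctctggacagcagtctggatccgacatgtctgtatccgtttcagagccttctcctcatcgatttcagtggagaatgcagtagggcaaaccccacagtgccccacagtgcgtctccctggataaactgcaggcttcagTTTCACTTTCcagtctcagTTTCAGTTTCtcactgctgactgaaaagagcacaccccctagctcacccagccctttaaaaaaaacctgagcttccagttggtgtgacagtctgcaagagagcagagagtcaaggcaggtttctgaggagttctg
Ifit3 (chr19:34583279-34583578, plus strand): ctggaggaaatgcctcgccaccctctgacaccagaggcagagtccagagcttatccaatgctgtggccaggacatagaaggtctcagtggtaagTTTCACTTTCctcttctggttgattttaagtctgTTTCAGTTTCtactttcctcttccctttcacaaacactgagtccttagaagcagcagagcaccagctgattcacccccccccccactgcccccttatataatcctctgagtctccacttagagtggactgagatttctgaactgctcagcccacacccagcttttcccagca
Isg15 (chr4:156200769-156201068, minus strand): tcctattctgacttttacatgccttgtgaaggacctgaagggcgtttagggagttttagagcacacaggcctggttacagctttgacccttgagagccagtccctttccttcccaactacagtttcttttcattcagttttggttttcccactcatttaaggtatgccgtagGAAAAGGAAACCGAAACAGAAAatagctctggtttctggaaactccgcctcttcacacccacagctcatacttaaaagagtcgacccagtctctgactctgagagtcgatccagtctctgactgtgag
The core was in 7 of the 12 windows of this list (58.33%) and in 347 of 9412 windows of tested genes (3.69%). Usp18, which removes ISG15 from proteins, had 3.7, 4.22 and 4.06 FPKM at ZT6 and 1.5, 2.42 and 2.53 FPKM at ZT18 in KO hearts, and 2.14, 2.15 and 2.46 FPKM at ZT6 and 3.25, 2.64 and 2.07 FPKM at ZT18 in WT hearts. Its KO groups did not overlap, its log2 difference was 0.68 ± 0.15, adjusted p = 0.00141, and the genotypes differed by 0.84 ± 0.21, adjusted p = 0.0231. Ifit1, an RNA-binding antiviral protein, had 5.97, 5.21 and 5.05 FPKM at ZT6 and 3.24, 4.65 and 3.76 FPKM at ZT18 in KO hearts, and 2.92, 3.84 and 2.1 FPKM at ZT6 and 5.6, 4.13 and 3.68 FPKM at ZT18 in WT hearts. Its log2 differences had opposite signs, 0.40 ± 0.13, adjusted p = 0.0254 in KO hearts and -0.48 ± 0.13, adjusted p = 0.00658 in WT hearts, and the difference between them was 0.88 ± 0.18, adjusted p = 0.00714. Isg15, the ubiquitin-like modifier, had 9.66, 7.52 and 8.51 FPKM at ZT6 and 6.06, 5.46 and 6.13 FPKM at ZT18 in KO hearts (log2 difference 0.47 ± 0.16, adjusted p = 0.0298), a call that held under 5 of 14 alternatives, while that of Ifit1 held under 7 of 13. Genotype differences were called for 6 of the 15 genes, all positive: Usp18, Ifit1, Ifit3 (0.73), Isg15 (0.81), Oas2 (0.82) and Xaf1 (0.61). Over all tested genes the genotype difference was called positive for 2.08% and negative for 1.19%. The count of 12 rests on single libraries, since it was 4 without KO ZT18 replicate 1 or KO ZT6 replicate 1, 6 without KO ZT18 replicate 3 and 7 without KO ZT6 replicate 3. It was also 8 with median-ratio scaling, 7 with quantile normalization and 8 among genes averaging at least 5 FPKM. The 6 genotype differences became 2 without KO ZT18 replicate 1, KO ZT6 replicate 1, KO ZT6 replicate 3 or WT ZT18 replicate 1, and 3 without WT ZT6 replicate 1 or WT ZT6 replicate 3.

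Markers of other cell types moved between the times as well, and fewer cells of a type and less RNA per cell cannot be told apart in these bulk samples. Of 9 endothelial markers, 7 were higher and none lower at ZT6 in KO hearts, with a summed level of 1130 to 1254 FPKM at ZT6 and 943 to 991 FPKM at ZT18. In WT hearts 2 were higher and 1 lower, and the sum was likewise higher at ZT6 without overlap, at 1273 to 1388 FPKM at ZT6 and 1040.05 to 1101 FPKM at ZT18. The median log2 difference of the 9 was 0.33 in KO hearts and 0.01 in WT hearts, and a sum weighs abundant members most. Pecam1, an endothelial junction protein, had 59.8, 57.9 and 58.3 FPKM at ZT6 and 43.2, 47.1 and 45.2 FPKM at ZT18 in KO hearts, and 61.6, 58.4 and 63.2 FPKM at ZT6 and 60.5, 60.9 and 59.8 FPKM at ZT18 in WT hearts. The KO ZT18 libraries were the low ones, the log2 difference was 0.37 ± 0.04, adjusted p = 6.73e-07, and the genotypes differed by 0.36 ± 0.06, adjusted p = 0.00132. Cdh5, the endothelial cadherin, likewise differed between genotypes (0.40 ± 0.08, adjusted p = 0.00549), as did Cav1 (0.47 ± 0.11, adjusted p = 0.0149), whose call was lost without KO ZT18 replicate 1. Of 9 fibroblast markers, 6 were higher and none lower at ZT6 in KO hearts, with a sum of 1056 to 1085 FPKM at ZT6 and 901 to 947 FPKM at ZT18. In WT hearts 3 were higher and none lower, with a sum of 951 to 992 FPKM at ZT6 and 875 to 901 FPKM at ZT18. The KO count was 3 with median-ratio scaling and 4 without KO ZT18 replicate 1. Of 8 smooth muscle and pericyte markers, 3 were higher and 1 lower at ZT6 in KO hearts, and none higher and 2 lower in WT hearts. The higher ones were the pericyte markers Rgs5 (log2 difference 0.40), Pdgfrb (0.43) and Kcnj8 (0.38, a call lost without KO ZT18 replicate 1), and the lower one was the smooth muscle actin gene Acta2 (-0.68), whose call held under 10 of 14 alternatives. The sum of the 8 was lower at ZT6 in both genotypes, at 409 to 439 FPKM at ZT6 and 440.06 to 514 FPKM at ZT18 in KO hearts and 274 to 335 FPKM at ZT6 and 359.6 to 376 FPKM at ZT18 in WT hearts. Their median log2 difference was 0.04 in KO hearts and 0.08 in WT hearts, so the sum does not stand for most members. Of 20 extracellular matrix genes, 14 were higher and none lower at ZT6 in KO hearts and 8 in WT hearts. The collagen gene Col3a1 had 50.7, 56.6 and 53.3 FPKM at ZT6 and 34.1, 34.7 and 33.2 FPKM at ZT18 in KO hearts (log2 difference 0.64 ± 0.14, adjusted p = 0.00143). Col6a3 had 5.8, 6.89 and 6.09 FPKM at ZT6 and 3.55, 3.86 and 3.8 FPKM at ZT18 (log2 difference 0.61 ± 0.10, adjusted p = 6.88e-05). The matrix count was 11 to 17 over the alternatives and 13 or 14 without any 1 library.

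The 10 macrophage markers summed to 246 to 272 FPKM at ZT6 and 289.7 to 312 FPKM at ZT18 in KO hearts, and 1 of them, Cd68, was called lower, a call lost without KO ZT6 replicate 3 or KO ZT18 replicate 1. The 8 lymphocyte markers summed to 1.74 to 2.17 FPKM at ZT6 and 1.44 to 1.76 FPKM at ZT18, and none reached the filter. The 7 cardiomyocyte markers summed to 63875 to 65806 FPKM at ZT6 and 65970 to 68513 FPKM at ZT18 in KO hearts, so the tissue label held. In WT hearts they summed to 62852 to 65806 FPKM at ZT6 and 66813.5 to 67160 FPKM at ZT18. The sum was lower at ZT6 without overlap in both genotypes, and 2 of the 7 were called lower and none higher in each. The lung markers Sftpc and Sftpb stayed under 0.1 FPKM in all 6 KO libraries. The part of these marker shifts in the interferon, matrix and other results was not tested. The atrial list was almost wholly Nppa, atrial natriuretic peptide, at 2812, 2523 and 2629.5 FPKM at ZT6 and 4661, 3069.9 and 3956 FPKM at ZT18 in KO hearts, and 247, 260.1 and 259 FPKM at ZT6 and 389, 385 and 259 FPKM at ZT18 in WT hearts. All KO libraries were higher than all WT libraries. The KO times did not overlap but missed the threshold (log2 difference -0.53 ± 0.21, adjusted p = 0.069), which they passed with median-ratio scaling, edgeR, a fit of the KO libraries of this comparison alone and without KO ZT18 replicate 2. The atrial gene Bmp10 was under 0.1 FPKM in all 6 KO libraries.

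**Figure D3:**
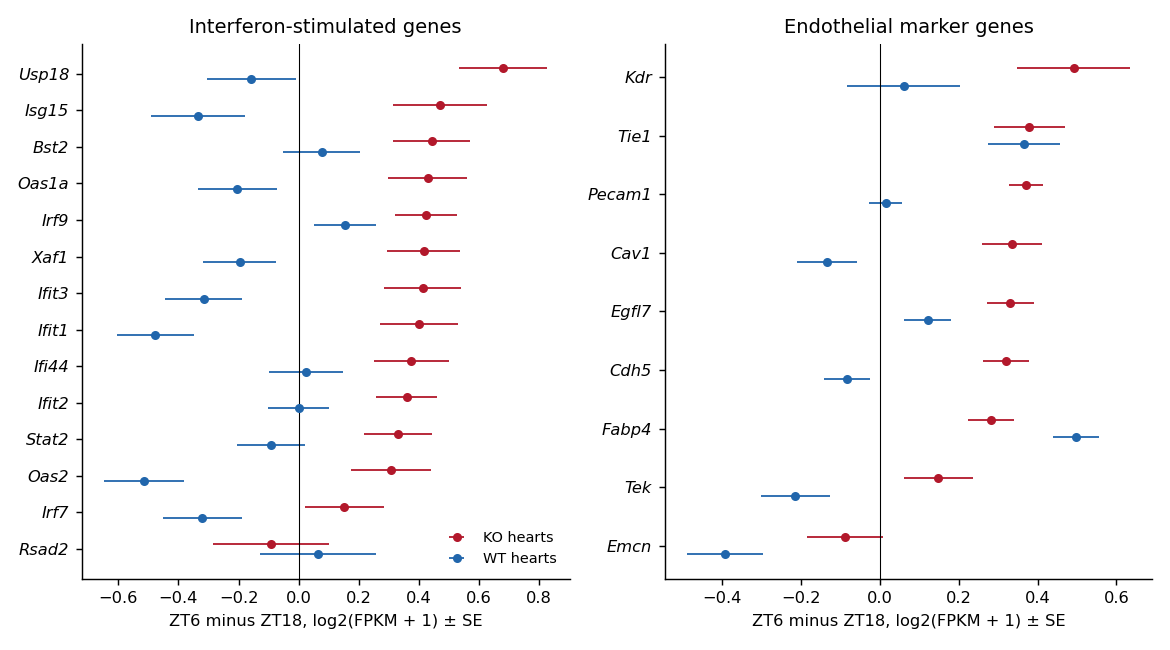
Log2 difference in FPKM + 1, ZT6 minus ZT18, of 14 of the interferon-stimulated genes and all 9 endothelial markers in KO (red) and WT (blue) hearts, with the SE from limma as whiskers. In KO hearts 11 of the 14 plotted interferon-stimulated genes and 7 of the 9 endothelial markers were called higher at ZT6.

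Beyond the fuel genes, the largest differences in KO hearts were in genes of varied function. Tmem100, a membrane protein of endothelium, had 8.45, 10.01 and 7.9 FPKM at ZT6 and 1.21, 0.98 and 1.29 FPKM at ZT18 in KO hearts. WT hearts had the opposite order, 2.29, 2.3 and 1.64 FPKM at ZT6 and 8.14, 7.26 and 3.3 FPKM at ZT18, without passing the threshold. The log2 difference was 2.18 ± 0.47, adjusted p = 0.00148 in KO hearts, and the genotypes differed by 3.34 ± 0.67, adjusted p = 0.00519. Rgs2, which shuts off G protein signals, had 40.5, 41.5 and 39.8 FPKM at ZT6 and 12.2, 14.3 and 13.1 FPKM at ZT18 (log2 difference 1.55 ± 0.13, adjusted p = 5.27e-09). Klhl38, Rab4a, Prnd and Cd300ld5 were also higher at ZT6, with log2 differences of 1.31, 1.30, 1.19 and 1.13; that of Cd300ld5 lost its call without KO ZT18 replicate 1, KO ZT18 replicate 3 or KO ZT6 replicate 1.

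On the lower side, Cited4, a transcriptional coregulator linked to exercise growth of the heart, had 20.4, 21.1 and 19.3 FPKM at ZT6 and 45.7, 60.97 and 52.04 FPKM at ZT18 in KO hearts (log2 difference -1.33 ± 0.11, adjusted p = 8.59e-09). Rtn4r, the Nogo receptor, had 7.76, 6.42 and 7.16 FPKM at ZT6 and 20.3, 30.1 and 24.5 FPKM at ZT18 (log2 difference -1.66 ± 0.18, adjusted p = 3.76e-07). WT hearts shared both directions, with log2 differences of -1.82 and -1.95. Cyp26b1, which degrades retinoic acid, had 2.01, 1.06 and 1.47 FPKM at ZT6 and 8.4, 4.68 and 7.02 FPKM at ZT18 in KO hearts, and 2.26, 2.04 and 2.6 FPKM at ZT6 and 2.22, 2.68 and 2.4 FPKM at ZT18 in WT hearts. The KO ZT18 libraries were the high ones, and the genotypes differed by -1.54 ± 0.30, adjusted p = 0.0046. Serpina3n, an acute-phase protease inhibitor, was lower (log2 difference -1.24), as were Frmd5 (-1.07), Ccdc69 (-0.94), Gm43305 (-1.72) and Gm14288 (-1.55). The call of Gm14288 held under 9 of 13 alternatives. The gene model LOC100862468 was listed at 0 in the 3 KO ZT6 libraries and at 9.68, 7.85 and 16.8 FPKM at ZT18, with the same split in WT hearts (0, 0 and 0 FPKM at ZT6, 8.51, 5.07 and 8.72 FPKM at ZT18). The histone genes H3c14, H3c15 and H2ac24 have near-identical copies, so their values are uncertain. H3c14 had 4.36, 4.22 and 4.45 FPKM at KO ZT6 and was listed at 0 in the 3 KO ZT18 libraries, and H3c15 and H2ac24 were lower at ZT6 with log2 differences of -2.03 and -1.58, calls that held under 7 of 13 and 12 of 13 alternatives.

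Several other lists had counts that depended on scaling. Over all tested genes, 17% were higher and 6.53% lower at ZT6 in KO hearts. With median-ratio scaling the lower calls over all 11790 genes rose from 770 to 1623, and the higher calls fell from 2001 to 1149. In fatty acid oxidation, 1 of 20 genes was higher and 3 lower at ZT6, 10 were lower with median-ratio scaling, and 1 was lower without KO ZT6 replicate 1, KO ZT6 replicate 2 or KO ZT18 replicate 3. Cpt1b, the muscle carnitine transferase, had 323, 319.9 and 314 FPKM at ZT6 and 355, 354 and 356 FPKM at ZT18 (log2 difference -0.15 ± 0.03, adjusted p = 0.00192). Of 35 oxidative phosphorylation genes 1 was higher and 2 lower, of 45 cytosolic ribosomal protein genes 2 and 5, and of 31 proteasome genes 2 and 1. With median-ratio scaling the lower counts of these 3 lists became 11, 12 and 10. RNA polymerase I and ribosome biogenesis had 3 of 30 genes higher and 4 lower, antioxidant genes 2 of 17 and 1, calcium handling genes 2 of 13 and 1 (none and 3 with median-ratio scaling). In the citric acid cycle 1 of 19 genes was higher and in NAD metabolism 1 of 15, with none lower in these. In the cell cycle 3 of 9 were higher and none lower, and the calls held under every alternative in which the gene was tested. These were the cyclin genes Ccnd1, with 26.3, 27.7 and 27.02 FPKM at ZT6 and 20.8, 19.5 and 19.6 FPKM at ZT18 in KO hearts (log2 difference 0.42 ± 0.11, adjusted p = 0.00635), and Ccna2 (log2 difference 0.39), and Mcm6, a subunit of the replicative helicase (0.47). Branched-chain amino acid breakdown had 5 of 19 genes higher and none lower, and 0 higher and 1 lower under median-ratio scaling, quantile normalization or edgeR, so no direction is given for it. Cholesterol and lipid synthesis had 6 of 20 higher, led by Stard4, a sterol carrier, and Insig1, a sterol sensor, at 0.40 and 0.57. That count was 3 with median-ratio scaling or quantile normalization and 2 without KO ZT6 replicate 1. Of 16 glucocorticoid-responsive genes 3 were higher, near the share of all tested genes, among them Klf9 (0.46) and Dusp1 (0.54). The median log2 difference of the 16 was -0.005. In cardiac stress genes 1 of 13 was higher, Ccn2, with 83.6, 83.04 and 79.9 FPKM at ZT6 and 50.5, 48.9 and 49.8 FPKM at ZT18 in KO hearts (log2 difference 0.71 ± 0.13, adjusted p = 0.000355).

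**Figure D4:**
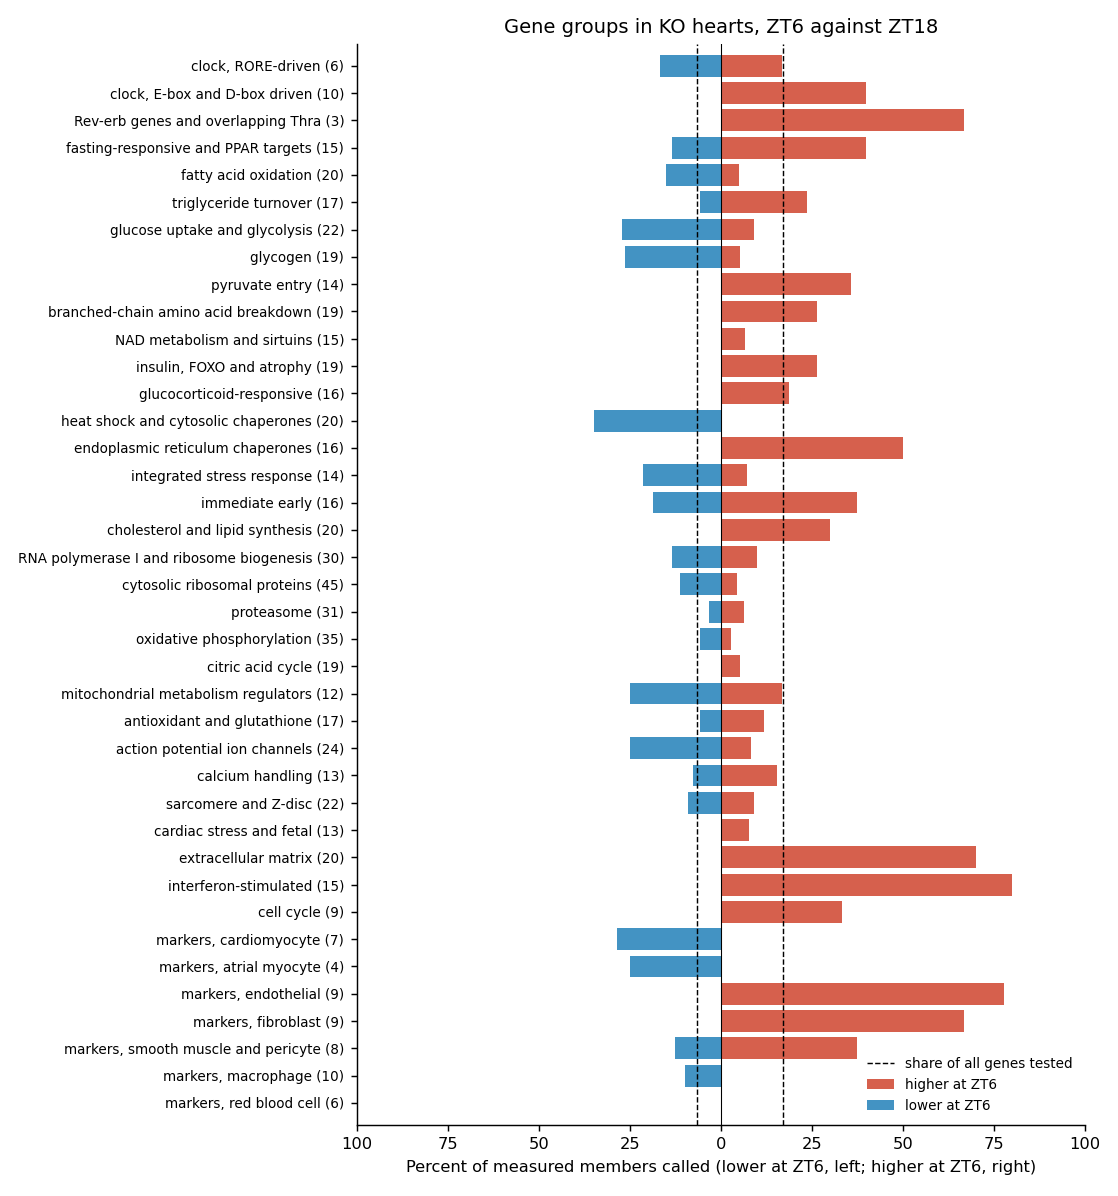
Percent of the measured members of each gene list called higher or lower at ZT6 than at ZT18 in KO hearts, with dashed lines at the share among all tested genes (17% higher, 6.53% lower). Extracellular matrix, interferon-stimulated and endoplasmic reticulum chaperone genes and endothelial and fibroblast markers lie above the line for higher, among others. Heat shock, glycolysis, glycogen, ion channel and mitochondrial regulator genes lie above the line for lower, among others.

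The comparison with WT hearts shares no library with the KO comparison. Both use the same estimate of spread for each gene, from all libraries in the fit, so their calls are not independent. In WT hearts 3355 genes differed between the times (28.5%), 2149 higher and 1206 lower at ZT6. Of the 2001 genes higher at ZT6 in KO hearts, 989 were also higher in WT hearts, 49.43% of the KO list and 46.02% of the WT list. Of the 770 lower, 459 were also lower in WT hearts, 59.61% of the KO list and 38.06% of the WT list. Genes called in both with opposite sign numbered 38. The log2 differences correlated across genes with r = 0.5581, a description, since genes are not independent replicates.

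The difference between genotypes itself was called for 385 genes, 245 positive and 140 negative. These were 166 called in WT hearts alone, 135 in KO hearts alone, 45 in both with the same sign, 38 in both with opposite signs and 1 in neither. The largest positive ones beside H3c14, Tmem100, Nfil3 and Egr1 were Itgb6, an integrin subunit, and Tpsb2, a mast cell tryptase. Itgb6 had 7.33, 6.78 and 6.79 FPKM at ZT6 and 4.72, 4.64 and 4.75 FPKM at ZT18 in KO hearts, and 2.19, 1.84 and 3.26 FPKM at ZT6 and 3.72, 4.35 and 5.05 FPKM at ZT18 in WT hearts (difference 1.14 ± 0.21, adjusted p = 0.00307). Tpsb2 had 1.97, 1.43 and 2.12 FPKM at ZT6 and 0.65, 0.88 and 0.51 FPKM at ZT18 in KO hearts (difference 1.07 ± 0.24, adjusted p = 0.0131). Both had log2 differences of opposite sign in the genotypes and KO groups that did not overlap, and the KO call of Itgb6 held under 8 of 13 alternatives. Among the largest negative ones were Nr1d1, Ang, Cyp26b1, Cnksr3 and Klf15. Cnksr3, a scaffold of kinase signalling, had 6.38, 9.78 and 7.63 FPKM at ZT6 and 9.49, 12.8 and 11.2 FPKM at ZT18 in KO hearts, and 15, 12.9 and 17.2 FPKM at ZT6 and 6.6, 9.99 and 5.33 FPKM at ZT18 in WT hearts (difference -1.43 ± 0.24, adjusted p = 0.00134). The call of Ang, a secreted ribonuclease, held under 3 of 19 alternatives, and that of H3c14 under 6 of 18.

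**Figure D5:**
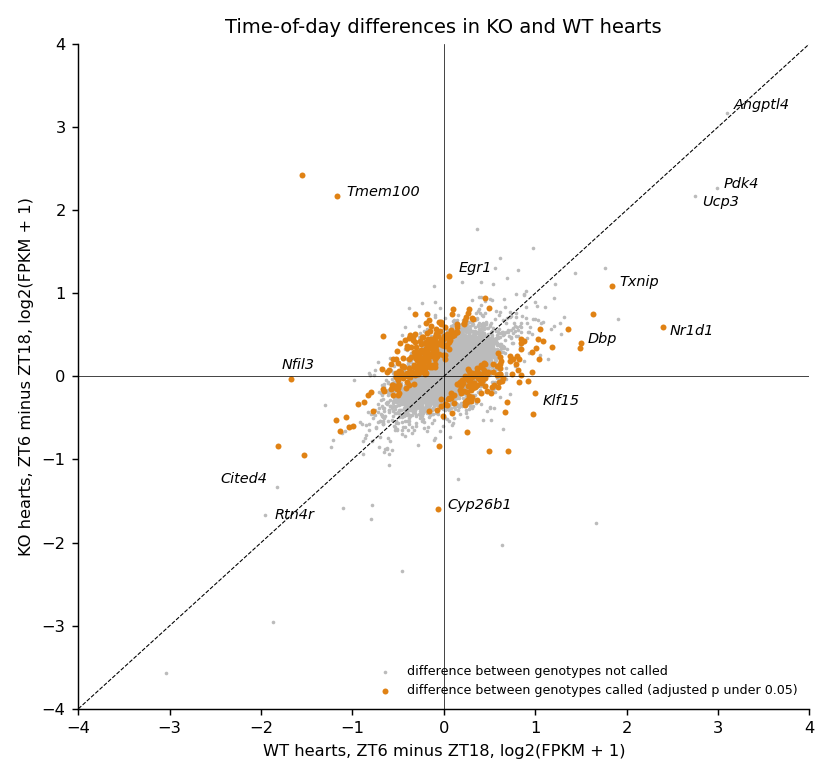
Log2 difference in FPKM + 1, ZT6 minus ZT18, of each tested gene in KO hearts (vertical axis) against WT hearts (horizontal axis), with the 385 genes whose difference between genotypes was called marked. Angptl4, Pdk4 and Ucp3 lie far from 0 on both axes, while Nr1d1, Nfil3 and Klf15 lie farther from 0 on the WT axis.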

How the data were processed

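RNA sequencing of mouse hearts was used as deposited. The authors' values for 33 libraries are FPKM, a unit inferred from the values, and the tables recorded for KO ZT22 are deposited expected counts whose headings and values match KO ZT10, so KO ZT22 was not analysed here. Reads were mapped to mm10 per the submitters' processing notes, and the aligner, counter and annotation were not given in the sources used here. The columns left out, as a repeat of another library, numbered 1. Of 18762 gene identifiers, 18623 had a symbol.

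FPKM scales each library to its own total, so a few abundant genes can shift all others. The test was limma 3.58.1 (R 4.3.3), run on log2(FPKM + 1) for the 11790 genes that reached 1 FPKM in 3 or more libraries, a scale that understates changes of low genes. The model held 11 group means (22 residual degrees of freedom), and p-values were adjusted by Benjamini-Hochberg over all tested genes, with a threshold of 0.05. The contrasts were ZT6 minus ZT18 in KO hearts, the same in WT hearts, and the difference between them. SE are from limma. Read totals were worked out from the step size among low values, with a tolerance of 0.15 reads, and edgeR 4.0.16 on rebuilt counts was an alternative, as were median-ratio scaling, quantile normalization, a pseudocount of 0.1, other filters, a replicate block and leaving out each library. The script was checked on simulated data. Same-numbered libraries were not treated as pairs.

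The members and gene lists were chosen with earlier results of these data known. Named genes were the 12 largest called differences in each direction in KO hearts with groups that do not overlap, the 6 largest genotype differences in each direction, the clock genes, and up to 4 members of each other list by adjusted p. List members named for a called genotype difference, and Nppa, Slc2a1, Hspa5, Pygm and other members beyond those 4, were chosen after their values were seen. Promoter windows are from RefSeq (GRCm38.p6). A few genes that this rule names are not reported here, though they stay in the counts of their lists.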

Additional observations from a re-analysis of the deposited data

Results flagged for a closer look

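The ZT6 minus ZT18 difference itself differed between KO and WT hearts (limma, adjusted p under 0.05) for the genes below, each given with the KO minus WT difference of the log2 differences. Groups of 3 libraries were not tested for single outlying libraries. The positive ones, higher at ZT6 relative to ZT18 in KO than in WT hearts, were H3c14 (3.97), Tmem100 (3.34), Egr1 (1.15), Ccdc69 (0.58), Nfil3 (1.65), Itgb6 (1.14), Tpsb2 (1.07), Ppp1r3c (0.43), Ppp1r3b (0.97), Irs2 (0.77), Ccn1 (0.49), Usp18 (0.84), Pecam1 (0.36) and Cdh5 (0.4). Also positive were Ier3 (0.66), Klf2 (0.37), Hcn4 (0.67), Lamb1 (0.4), Mmp2 (0.38), Ifit1 (0.88), Ifit3 (0.73), Isg15 (0.81), Oas2 (0.82), Xaf1 (0.61), Ccnd2 (0.47), Cav1 (0.47), Tcf21 (0.61) and Notch3 (0.36). The negative ones were Cyp26b1 (-1.54), Nr1d1 (-1.8), Ang (-1.6), Cnksr3 (-1.43), Klf15 (-1.2), Dbp (-1.1), Nr1d2 (-0.79), Txnip (-0.75), Perm1 (-0.26), Ppara (-0.47) and Acot1 (-0.72). Also negative were Acot2 (-0.39), Cd36 (-0.26), Slc2a1 (-0.97), Pdp2 (-0.82), Trim63 (-0.73), Sesn1 (-0.55), Gabarapl1 (-0.44), Dnajb9 (-0.38), Chac1 (-1.16), Zfp36 (-0.83), Sc5d (-0.29), Ppargc1a (-0.59) and Lmod2 (-0.72). Of the 52 called differences, 24 kept their call under every alternative run for them.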

How the results depend on the processing

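No called difference of a named gene changed sign under an alternative run here. The split of KO calls moved most: genes higher at ZT6 numbered 1273 with edgeR on rebuilt counts, 1243 among genes averaging at least 5 FPKM, 1115 with quantile normalization and 1149 with median-ratio scaling, against 2001, and genes lower numbered 1562 with edgeR and 1623 with median-ratio scaling, against 770. All 1149 were among the 2001, and all 770 stayed lower with median-ratio scaling. The median log2 difference over all genes was -0.015 with median-ratio scaling, against 0.054 as deposited. In WT hearts 1607 genes were higher and 1700 lower with edgeR, and 1637 and 1637 with quantile normalization. Negative genotype differences numbered 212 with edgeR, against 140.

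Without any 1 library, KO calls numbered 1960 to 2183 (1402 to 1583 higher, 558 to 618 lower), WT calls 2593 to 3020 (1658 to 1979 higher, 935 to 1043 lower) and genotype differences 203 to 297 (122 to 187 positive, 77 to 126 negative). The genotype differences were fewest without KO ZT18 replicate 1 (203), KO ZT6 replicate 1 (212), KO ZT18 replicate 3 (225), WT ZT6 replicate 1 (225) and KO ZT6 replicate 3 (228). Positive ones also fell to 155 without WT ZT6 replicate 3, and negative ones to 89 without WT ZT18 replicate 3. Of 156 named genes called in KO hearts, 98 kept their call under every alternative. With the libraries of the KO comparison fitted alone, 12 heat shock genes were lower and 8 insulin and FOXO genes higher. The cause of these shifts was not tested.

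Replicate numbers did not pair the libraries: deviations of same-numbered KO libraries correlated at 0.031, 0.053 and -0.044. With the replicate block 1970 genes were higher and 755 lower in KO hearts, 2106 and 1184 in WT hearts, and 216 genotype differences were positive and 128 negative. Depth limits low genes, where 1 FPKM or less gives few reads.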
